A study of Homo sapiens with 6 samples.

Results

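The cytosolic ribosomal protein genes were followed in H1 human embryonic stem cells grown on 2 laminin coatings. The set holds protein-coding genes whose symbol is RPL or RPS plus a number, with or without an X, Y, A or L suffix, together with RPLP0, RPLP1, RPLP2 and FAU. RPSA, the RPS6K kinases, RPS4Y1, RPS4Y2 and pseudogenes were left out. The rule found 85 genes among the 60499 gene IDs in the deposited tables. Of these, 77 encode canonical ribosomal proteins, 46 in the large subunit and 31 in the small subunit (FAU included), and 8 are paralogues carrying an L suffix: RPL3L, RPL7L1, RPL10L, RPL22L1, RPL26L1, RPL36AL, RPL39L and RPS27L. After a filter on low counts, 84 members were tested. RPL10L, the testis paralogue of RPL10, had 0 counts in all 6 libraries, which allows at most 3 counts per library, or 0.112 to 0.146 CPM (counts scaled to library size), for counting error only.

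H1 is an established line of pluripotent cells. All wells received NutriStem, a defined stem cell medium, for 4 days. The LN-521 group grew on laminin-521 alone, the LN-521+LN-221 group grew on laminin-521 together with laminin-221, and each group held 3 wells. Total RNA was read as stranded 150 bp pairs. The labels call the wells triplicates and biological replicates of a single line and do not say that they came from separate passages, so p-values here measure the spread between these wells, which may be partly technical. All 10 pluripotency markers examined were expressed, at mean levels of 44.9 to 754 TPM (a share of transcripts, corrected for length), while 1 of 10 mesendoderm markers passed the filter on low counts and none exceeded a mean of 0.9 TPM. Of the 8 neuroectoderm markers, 5 passed it, and the highest, OTX2, had a mean of 62.5 TPM.

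Ribosomes translate all cytosolic mRNAs, and each needs its proteins in fixed proportion to ribosomal RNA. Most vertebrate ribosomal protein mRNAs begin with a 5′ terminal oligopyrimidine tract (TOP), a cytosine at the cap followed by a run of pyrimidines, through which mTORC1 and the RNA-binding protein LARP1 adjust their translation and stability. MYC proteins are known activators of ribosomal protein gene transcription, and pluripotent cells are known for a large pool of ribosomes held at a modest rate of translation.

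The start sites were read from RefSeq promoter sequences on GRCh38.p14, the hg38 assembly that the submitters' processing notes also name. Entries were found for 68 of the 85 members. The motif searched, on the gene's own strand, was a C exactly at a listed start followed by at least 4 bases that are each C or T. It was present in 47 of these 68 members (69.1%), against 5.14% of the 27305 genes with an entry. Within 5 bases either side of a listed start it was present in 55 members (80.9%), against 25.2% of all genes. The windows below run from 12 bases before the start to 16 bases from it, 5′ to 3′, and capitals mark the pyrimidine run that begins at the start. They show the 3 stalk proteins and FAU, among which are the lowest fold changes of the canonical genes; RPS27 and RPS26, the most and least abundant canonical members; RPS6; and paralogues beside their partners.
RPLP0 (chr12:120201096-120201123, minus strand): cgggcgcgaggcCCTTCTCTCgccaggc
RPLP1 (chr15:69452806-69452833, plus strand): taggcgcgagagCCCCTTTCCTCagctg
RPLP2 (chr11:809955-809982, plus strand): cgtcggcgccttCCTTTTCCTCCCTgtc
FAU (chr11:65122119-65122146, minus strand): cctcgcttcttcCTCTTTCTCgactcca
RPS27 (chr1:153990750-153990777, plus strand): tccgctttcgctCCTTTCCggcggtgac
RPS26 (chr12:56041906-56041933, plus strand): acacataacctcgattttcttccgccat
RPS6 (chr9:19380221-19380248, minus strand): cggaagttggccCTCTTTTCCgtggcgc
RPL36A (chrX:101390999-101391026, plus strand): gcctcgcggtttCTTTCTTTCCgcgccg
RPL36AL (chr14:49620611-49620638, minus strand): tttcttccctttCCTgttaggcgagagc
RPL22 (chr1:6199580-6199607, minus strand): ttcgctcacctcCCTTTCTaactccgct
RPL22L1 (chr3:170870180-170870207, minus strand): ggccgtagcttcCTCTCTgctctcgcgg
RPL26 (chr17:8383178-8383205, minus strand): cagcgtgtagttCTCTTCCCTTTTgcgg
RPL26L1 (chr5:172958717-172958744, plus strand): cttccaggggtcggcgaacgaaacgcgg
RPS27L (chr15:63157462-63157489, minus strand): ttgatgccgagcgcagatcgcttgcagc
RPLP0, RPLP1, RPLP2, FAU, RPS6 and RPS27 carry the run at the listed start, and RPS26 does not. Among the paralogues shown, RPL22L1 carries it like RPL22, the run of RPL36AL is shorter than that of RPL36A, and RPL26L1 and RPS27L have no pyrimidine at the listed start where RPL26 and RPS27 do. A match is a description of these letters and says nothing of cap sites used in H1 cells.

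Ribosomal protein mRNAs were among the abundant RNAs of both groups. The 85 members took between 6.48% and 6.86% of all counts in a library, and the totals of the 6 libraries ran from 20606450 to 26836686 counts. The 77 canonical genes spanned a 16.3-fold range of mean TPM, from 276 for RPS26 to 4487 for RPS27, with a median of 1320 and quartiles of 968 and 1850. The 10 most abundant held 24.7% of the TPM of the canonical set. When the genes were ordered by mean TPM, the ranges of the 6 libraries overlapped in 71 of 76 neighbouring pairs. Neighbours in such an order are close by construction. Whether neighbours differ within each library was not tested.

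The highest level was that of RPS27, a zinc-finger protein of the small subunit, which had 4566, 4113 and 4329 TPM on LN-521 and 4741, 4718 and 4457 TPM on LN-521+LN-221. It was followed by RPL41, the smallest ribosomal protein (mean 3017 TPM), RPS24 (2888 TPM), RPS2 (2850 TPM) and RPL12 (2430 TPM). The lowest canonical member was RPS26, which lines the mRNA exit channel, with 291, 254 and 294 TPM on LN-521 and 286, 268 and 260.1 TPM on LN-521+LN-221. FAU (mean 349 TPM), RPL28 (425 TPM), RPS28 (433 TPM) and RPL22 (471 TPM) came next above it. The order of the 77 genes was nearly the same on both coatings (Spearman's rho 0.996 across genes, which share their lengths and annotation and are not independent replicates).

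**Figure D1:**
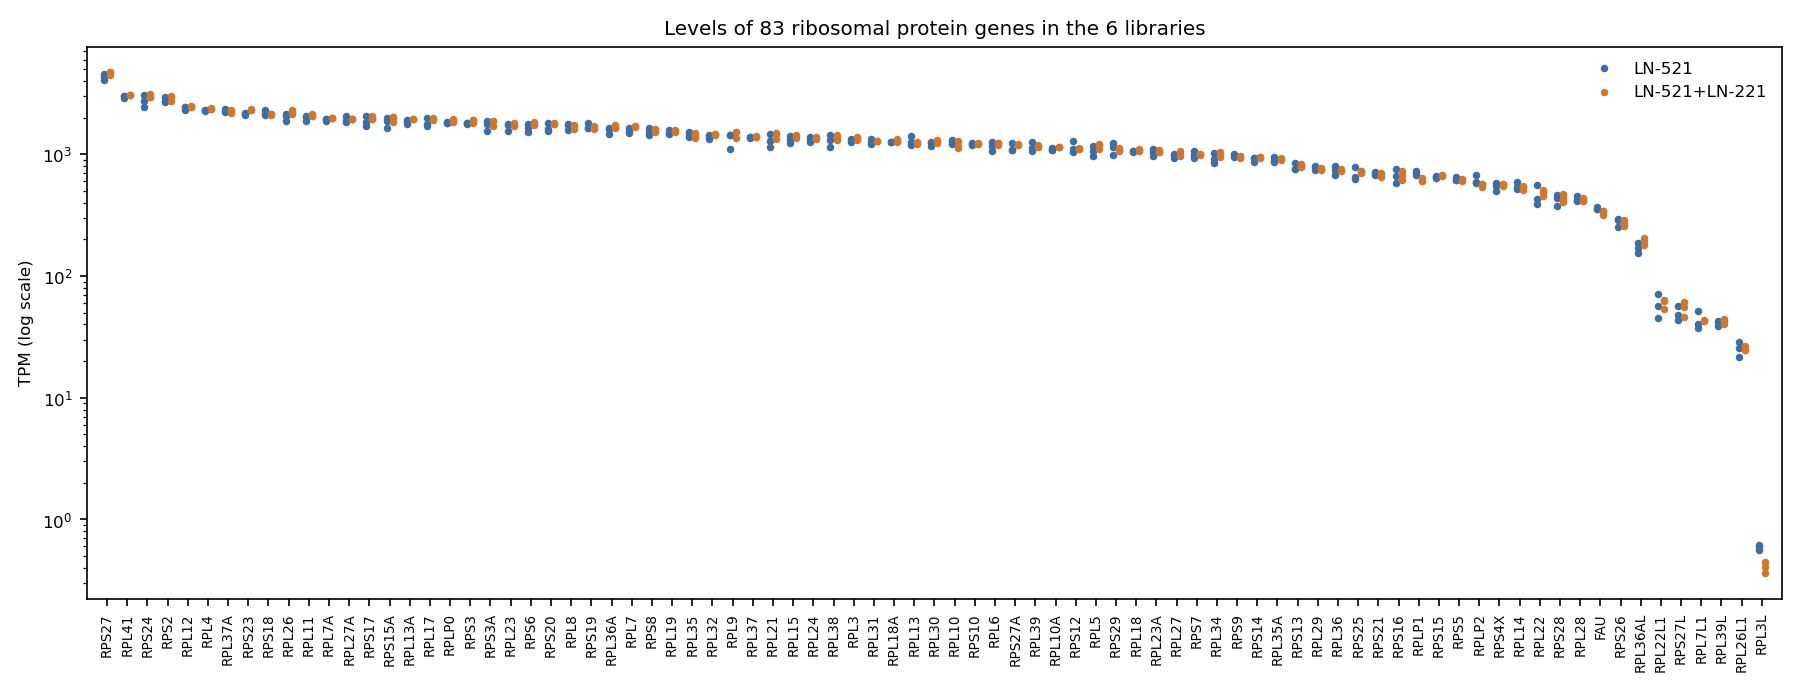
Levels of 83 of the 84 ribosomal protein genes detected, in TPM (log axis), ordered by mean level, with 1 point per library and a colour per coating. The canonical genes lie between 276 (RPS26) and 4487 TPM (RPS27) and the paralogues lie below them, from 181.5 TPM (RPL36AL) to 0.5 TPM (RPL3L).

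No ribosomal protein gene passed edgeR's quasi-likelihood test between the coatings. None of the 84 members tested had an adjusted p under 0.05, against 2.53% of the 17608 genes tested in all (1.4% higher and 1.14% lower on LN-521+LN-221). The lowest adjusted p of a member was 0.202. Without adjustment, 4 members (4.76%) had p under 0.05, namely FAU, RPL36AL, RPLP1 and RPLP2, against 14.5% of all genes. This count depended on the fit: it was 9 (10.7%, against 17.5% of all genes) after GC correction, 11 (13.1%, against 14.9%) after length correction and 21 (25%, against 21.4%) without LN-521 replicate 1. DESeq2 likewise called 0 members, where it called 3% of all genes, and found RPL15 besides these 4 without adjustment (11.4% of all genes). Blocking on replicate number gave 0 calls among the members (3.67% of all genes).

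The members were measured more tightly than most genes, so the absence of calls comes with narrow limits. The log2 fold changes had a median standard error (SE) of 0.054 in the members and 0.101 in all genes. The members are also more abundant, with a median of 1250 TPM beside 6.04 TPM in all genes tested. Such precision is not particular to them: 18 elongation factors and other TOP mRNAs, at a median of 529 TPM, had a median SE of 0.051. The 95% interval of the fold change lay within 1.2-fold either way for 79 of the 84 members (94%), against 35% of all genes. Over the 77 canonical genes the intervals reached from 0.737-fold to 1.28-fold, both ends belonging to RPS16. The estimates were also small. The median absolute log2 fold change was 0.04 in the members and 0.11 in all genes. With such small estimates, leaving out 1 of the 6 libraries moved the log2 fold change of 75 of the 84 members (89.3%) by over 1.5 times or turned its sign, as it did for 80% of all genes. Fold changes are given throughout as LN-521+LN-221 over LN-521. In RNA from whole wells, fewer cells that express a gene and less of its RNA per cell cannot be told apart.

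Signs were evenly divided. The median log2 fold change of the members was 0.00, with 42 positive and 42 negative values, beside a median of -0.001 over all genes. The 46 large subunit genes had a median of 0.00 (23 positive, 23 negative) and the 31 small subunit genes a median of -0.005 (14 positive, 17 negative). For 17 of 84 members the groups had CPM without overlap (20.2%), against 19.9% of all genes. Of these, 11 were higher on LN-521+LN-221 (13.1%, against 10.2% of all genes) and 6 were lower (7.14%, against 9.68%). Both shares are near the background. The 47 members with the pyrimidine run at the start had a median of -0.012 (19 positive, 28 negative), and the 20 tested members with an entry that lacks it had a median of 0.016 (14 positive, 6 negative). Some of the latter have the motif within 5 bases of a listed start. Whether these groups differ was not tested, and fold changes of the members also ran with GC content (Pearson's r -0.55, described below).

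**Figure D2:**
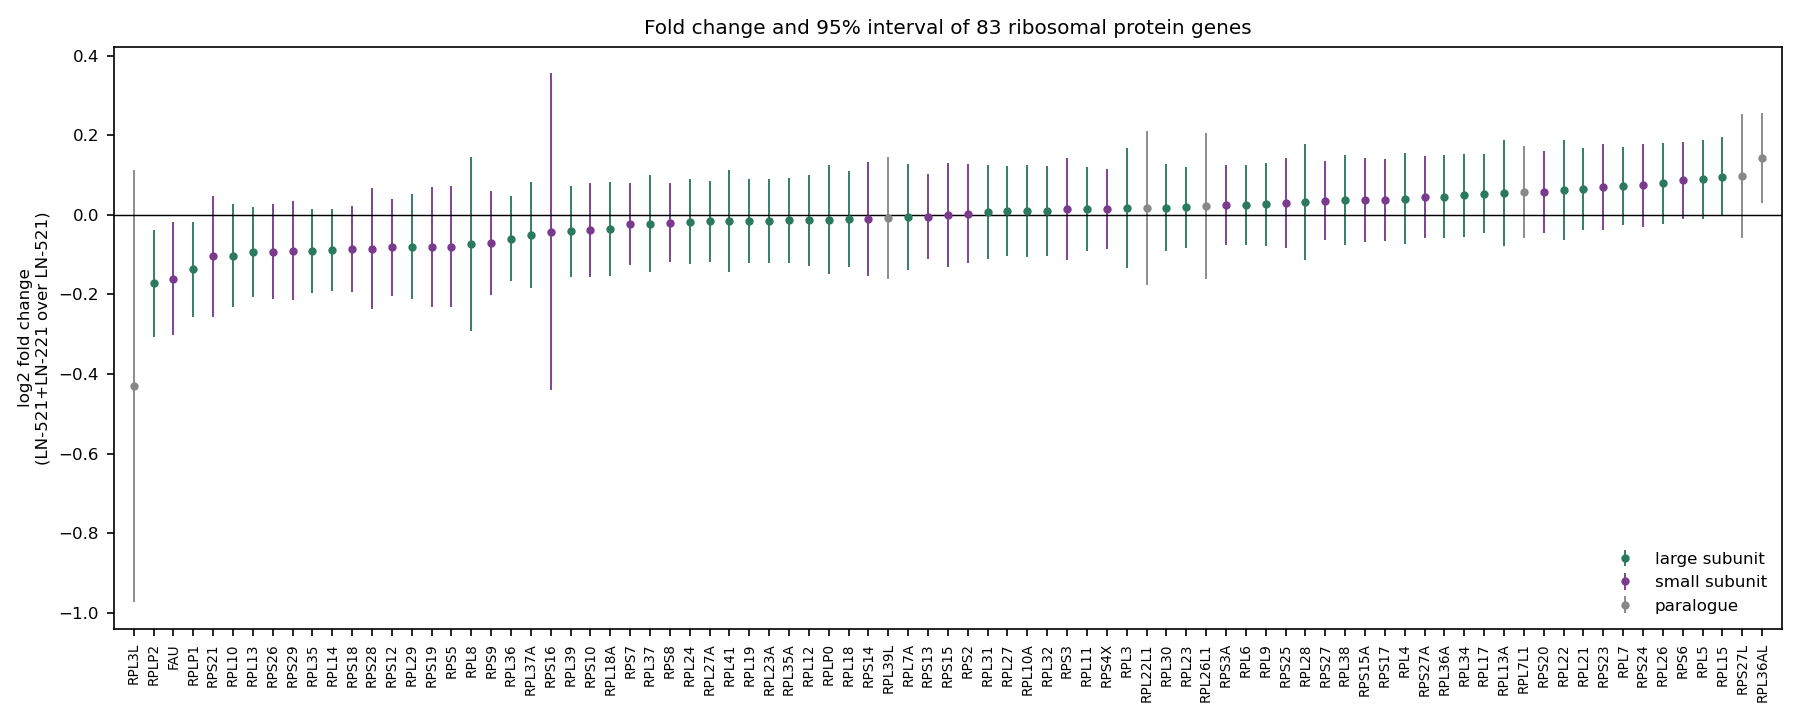
Log2 fold change (LN-521+LN-221 over LN-521) of 83 of the 84 members tested, ordered by value and coloured by subunit or paralogue; bars are 95% intervals from the edgeR fit. For all but 5 of them the interval lies within 1.2-fold either way, and RPL3L, counted 20 to 37 times per library, has the lowest estimate.

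Before the members are taken one by one, the libraries need describing. LN-521 replicate 1 had the lowest CPM of the 6 libraries for 37 of the 84 members tested, and LN-521 replicate 2 had the highest for 32. LN-521+LN-221 replicate 1 was the lowest for 21, and LN-521+LN-221 replicate 3 the highest for 24. The same counts were not made over all genes. Over the 83 members other than RPL3L, the median deviation of log2 CPM from the 6-library mean was -0.05 in LN-521 replicate 1 and 0.03 in LN-521 replicate 2. In LN-521+LN-221 it was -0.04, 0.00 and 0.04 in replicates 1, 2 and 3. These deviations ran with the GC content of the transcripts: across the 83 genes Pearson's r was -0.41, 0.68 and 0.36 in LN-521 replicates 1, 2 and 3 and -0.54, -0.44 and -0.02 in LN-521+LN-221 replicates 1, 2 and 3. Over 17473 genes r was -0.26, 0.45 and 0.03 and -0.15, -0.13 and 0.04 in the same order. The genes of a library share its preparation and depth, and these correlations are descriptions. The members varied more between the wells on LN-521 (median coefficient of variation of CPM 4.85%) than between those on LN-521+LN-221 (3.41%), as did all genes (9.09% and 6.44%).

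**Figure D3:**
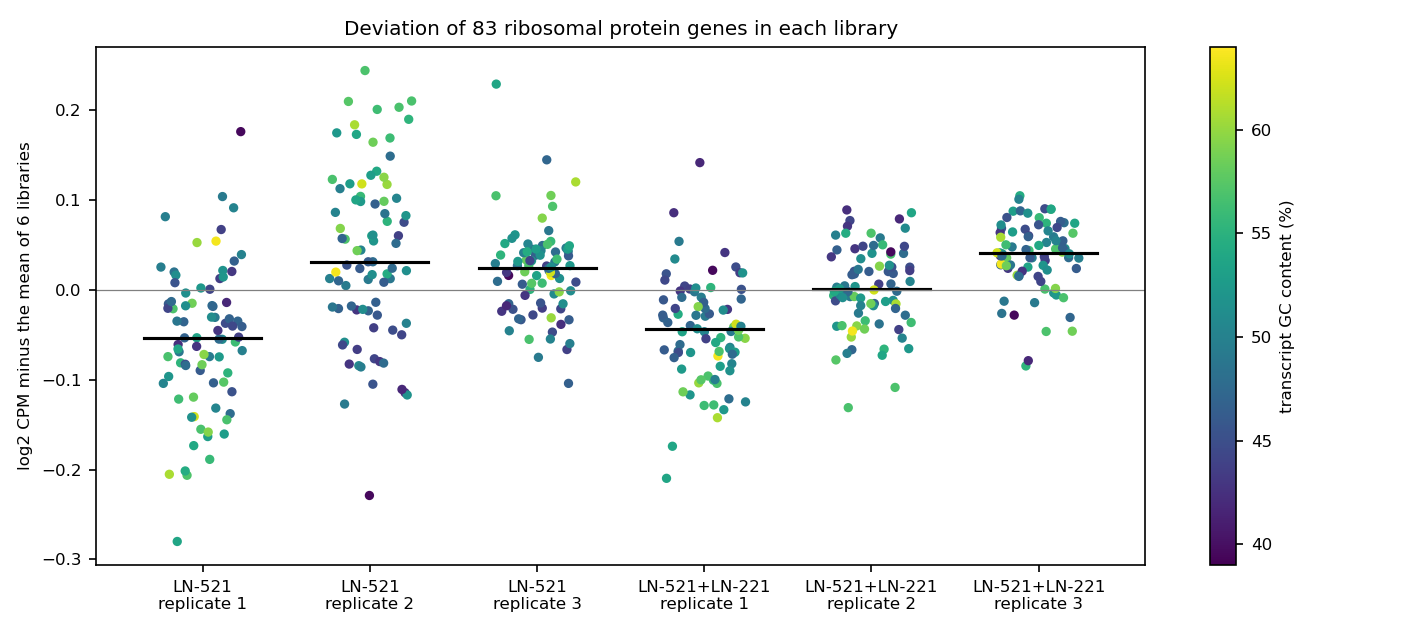
Deviation of log2 CPM from the mean of the 6 libraries for 83 members in each library, 1 point per gene, coloured by transcript GC content in percent. In LN-521 replicate 2 the genes of high GC content lie above those of low GC content (r 0.68), and in LN-521+LN-221 replicate 1 below them (r -0.54).

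The ribosomal stalk recruits the elongation and release factors to the large subunit, and its base protein RPLP0 holds dimers of RPLP1 and RPLP2. RPLP2 (ENSG00000177600) had 289, 348 and 299 CPM on LN-521 and 274, 272 and 284 CPM on LN-521+LN-221. Its groups did not overlap, and LN-521 replicate 2 stood above the other wells. The means were 312 ± 31.3 and 277 ± 6.36 CPM (SD, n = 3 each), for a log2 fold change of -0.17 ± 0.06 (SE, 95% interval -0.31 to -0.04), which did not pass the test (adjusted p by edgeR = 0.202) and came to -0.08 without LN-521 replicate 2. RPLP1 (ENSG00000137818) had 540.3, 609 and 550 CPM on LN-521 and 492, 516 and 537 CPM on LN-521+LN-221. Its groups were separated by a narrow gap between 537 and 540.3 CPM, and its log2 fold change was -0.14 ± 0.06 (SE; adjusted p by edgeR = 0.264), or -0.08 without LN-521 replicate 2. RPLP0 (ENSG00000089157), the most abundant of the 3 with a mean of 1854 TPM, had 2050, 2534 and 2396 CPM on LN-521 and 2220, 2309 and 2393 CPM on LN-521+LN-221. Its lowest and highest wells were both on LN-521, and its log2 fold change was -0.01 ± 0.07 (SE; adjusted p by edgeR = 0.958), a value whose sign turned under several alternatives, GC and length correction among them.

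RPL5 and RPL11 bind the 5S ribosomal RNA, and as a free particle they bind and inhibit the ubiquitin ligase MDM2. RPL5 had 1174, 1144 and 1206 CPM on LN-521 and 1247, 1272 and 1229 CPM on LN-521+LN-221, without overlap. Its log2 fold change was 0.09 ± 0.05 (SE; adjusted p by edgeR = 0.415). RPL11 had 1116, 1179 and 1214 CPM on LN-521 and 1152, 1169 and 1224 CPM on LN-521+LN-221, with overlap and a log2 fold change of 0.01 ± 0.05 (SE; adjusted p by edgeR = 0.931). RPL4, RPL17 and RPL39, which line the tunnel through which the nascent chain leaves, had mean levels of 2341, 1887 and 1160 TPM.

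Among the other large subunit proteins, RPL15 had the highest log2 fold change. RPL15, which sits in the core of the subunit, had 1474, 1444 and 1526 CPM on LN-521 and 1568, 1606 and 1574 CPM on LN-521+LN-221. The groups did not overlap, with means of 1481 ± 41.7 and 1583 ± 20.2 CPM (SD, n = 3 each). Its log2 fold change was 0.10 ± 0.05 (SE, 95% interval -0.003 to 0.19; adjusted p by edgeR = 0.367). RPL10, the X-linked protein that joins late in maturation of the subunit, had 759.6, 917 and 826 CPM on LN-521 and 805, 768 and 758 CPM on LN-521+LN-221. RPL8, next to the peptidyl transferase centre, had 1069, 1400 and 1339 CPM on LN-521 and 1116, 1219 and 1283 CPM on LN-521+LN-221. Both overlapped, with the extremes in LN-521 replicate 2 (the highest for each) and in LN-521+LN-221 replicate 3 for RPL10 and LN-521 replicate 1 for RPL8. RPL38, known from mice for its part in the translation of Hox mRNAs, had 426, 387 and 431 CPM on LN-521 and 425, 432 and 419 CPM on LN-521+LN-221, so its log2 fold change was 0.04 ± 0.05 (SE).

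In the small subunit, FAU had the lowest log2 fold change. FAU (ENSG00000149806) encodes a ubiquitin-like peptide fused to the ribosomal protein eS30. It had 162, 196 and 183 CPM on LN-521 and 158, 155 and 170.3 CPM on LN-521+LN-221, so the groups overlapped. The means were 180.3 ± 17.4 and 161 ± 7.91 CPM (SD, n = 3 each), and the log2 fold change was -0.16 ± 0.07 (SE, 95% interval -0.30 to -0.02; adjusted p by edgeR = 0.267), or -0.09 without LN-521 replicate 2. RPS27A, the other fusion member, which carries ubiquitin itself, had 879.7, 910.3 and 884 CPM on LN-521 and 888, 916 and 954 CPM on LN-521+LN-221. Its log2 fold change was 0.04 ± 0.05 (SE; adjusted p by edgeR = 0.751), with values from 0.02 without LN-521+LN-221 replicate 3 to 0.07 without LN-521+LN-221 replicate 1.

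RPS6, the substrate of the S6 kinases downstream of mTORC1, had 1693, 1668 and 1707 CPM on LN-521 and 1754, 1800 and 1826 CPM on LN-521+LN-221. The groups did not overlap, and the log2 fold change was 0.09 ± 0.05 (SE; adjusted p by edgeR = 0.416). RPS19, the gene most often mutated in Diamond-Blackfan anaemia, had 634, 787 and 684 CPM on LN-521 and 635, 644 and 711 CPM on LN-521+LN-221. These overlapped, with a log2 fold change of -0.08 ± 0.07 (SE; adjusted p by edgeR = 0.667). Of 19 Diamond-Blackfan anaemia genes among the members, 0 were called (2.53% of all genes) and 0 had an unadjusted edgeR p under 0.05 (14.5% of all genes). Their values were positive for 10 and negative for 9, with a median of 0.01. Without LN-521 replicate 1, 1 of the 19 genes, RPS28, was called, where 6.54% of all genes were.

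RPS21, a small protein of the subunit, had 141, 166 and 152 CPM on LN-521 and 130.4, 139.9 and 157 CPM on LN-521+LN-221, with overlap and a log2 fold change of -0.10 ± 0.07 (SE; adjusted p by edgeR = 0.559). It came to -0.16 and -0.04 without LN-521 replicates 1 and 2, and to -0.04 and -0.18 without LN-521+LN-221 replicates 1 and 3. RPS28 had 163, 208 and 186 CPM on LN-521 and 172, 175 and 179 CPM on LN-521+LN-221, all 3 of the latter within the LN-521 range. RPS4X, encoded on the X chromosome, had 909, 919 and 951 CPM on LN-521 and 913, 946 and 949 CPM on LN-521+LN-221, an interleaved set of values. RPS25, needed by several viral internal ribosome entry sites, had 590.4, 560 and 557 CPM on LN-521 and 559, 568 and 616 CPM on LN-521+LN-221, also overlapping. RPS16 was the least reproducible member, with a coefficient of variation of 17.6% on LN-521 and 11.2% on LN-521+LN-221. It had 267, 348 and 381 CPM on LN-521 and 281, 345 and 342 CPM on LN-521+LN-221, with replicate 1 the lowest well in each group. Its log2 fold change of -0.04 ± 0.16 (SE, 95% interval -0.44 to 0.36; adjusted p by edgeR = 0.939) is therefore the least precise of the canonical set.

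The L-suffix paralogues were expressed far below their partners. RPL36AL is an autosomal copy of the X-linked RPL36A. Counts of RPL36AL were not whole numbers in 1 library, and those of RPL36A in all 6. How far the counting program divided reads of the pair was not tested. The RPL36AL level was 11.2%, 10.4% and 10.5% of the RPL36A level in TPM on LN-521, against 11.6%, 11.6% and 10.9% on LN-521+LN-221. RPL22L1 stood at 12.9%, 11.6% and 13.2% of RPL22 on LN-521, against 12.6%, 12.6% and 11.8% on LN-521+LN-221. Both ratios overlapped between the coatings.

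RPL36AL (ENSG00000165502) had the highest log2 fold change of all members. It had 123, 119 and 125 CPM on LN-521 and 137, 137 and 132 CPM on LN-521+LN-221. The groups did not overlap, with means of 122 ± 3.32 and 135 ± 2.67 CPM (SD, n = 3 each) and with a log2 fold change of 0.14 ± 0.05 (SE, 95% interval 0.03 to 0.26), which did not pass the test (adjusted p by edgeR = 0.208). Its partner RPL36A had a log2 fold change of 0.05 ± 0.05 (SE; adjusted p by edgeR = 0.746). Whether the 2 fold changes differ from each other was not tested. RPL22L1, with 33, 24.8 and 29.5 CPM on LN-521 and 29.6, 30.1 and 28.6 CPM on LN-521+LN-221, had a log2 fold change of 0.02 ± 0.09 (SE), and its highest and lowest wells were both on LN-521.

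The remaining paralogues reached smaller shares of their partners. RPL39L, an autosomal copy of the X-linked RPL39, lay between 3.36% and 3.94% of RPL39 in TPM, and RPL7L1, a relative of RPL7, between 2.5% and 3.18% of RPL7. RPL26L1 lay between 1.13% and 1.36% of RPL26, and RPS27L between 1.03% and 1.28% of RPS27. All 4 overlapped between the coatings. RPS27L had 39.1, 36.5 and 39 CPM on LN-521 and 43.6, 41.7 and 37.3 CPM on LN-521+LN-221, which overlapped, with a log2 fold change of 0.10 ± 0.07 (SE; adjusted p by edgeR = 0.598). It came to 0.05 and 0.16 without LN-521+LN-221 replicates 1 and 3. RPL39L had 28.6, 30.3 and 31.4 CPM on LN-521 and 29.9, 30.1 and 29.7 CPM on LN-521+LN-221, with the latter inside the LN-521 range. RPL7L1 had 161, 156 and 146 CPM on LN-521 and 156, 162 and 164 CPM on LN-521+LN-221. RPL26L1 had 16.8, 15.5 and 16.8 CPM on LN-521 and 16.4, 16.5 and 16.9 CPM on LN-521+LN-221. All 3 overlapped.

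Of the partner genes, RPL7 and RPL26 had no overlap between the coatings. RPL7 had 1254, 1290 and 1289 CPM on LN-521 and 1309, 1353 and 1370 CPM on LN-521+LN-221, and neither it nor RPL26 passed the test. RPL26 had 873, 896 and 930.2 CPM on LN-521 and 941, 941 and 969 CPM on LN-521+LN-221. RPL3, RPL22, RPL36A and RPL39 overlapped. RPL3 had 1655, 2027 and 1958 CPM on LN-521 and 1759, 1953 and 1994 CPM on LN-521+LN-221. RPL22 had 605, 515 and 534 CPM on LN-521 and 584, 586 and 557 CPM on LN-521+LN-221. In both, LN-521 replicates 1 and 2 were the extremes. RPL36A had 508, 511 and 536 CPM on LN-521 and 527, 529 and 549 CPM on LN-521+LN-221. RPL39 had 342, 340.3 and 312 CPM on LN-521 and 314, 316 and 335 CPM on LN-521+LN-221.

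RPL3L, known from heart and skeletal muscle, had 0.0494%, 0.0433% and 0.0453% of the RPL3 level on LN-521, against 0.0312%, 0.0325% and 0.0265% on LN-521+LN-221. This was the only ratio without overlap among the 7 paralogues detected. It rests on 20 to 37 counts per library, and the log2 fold change of RPL3L, -0.43 ± 0.26 (SE, 95% interval -0.97 to 0.11), did not pass the test (adjusted p by edgeR = 0.488).

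**Figure D4:**
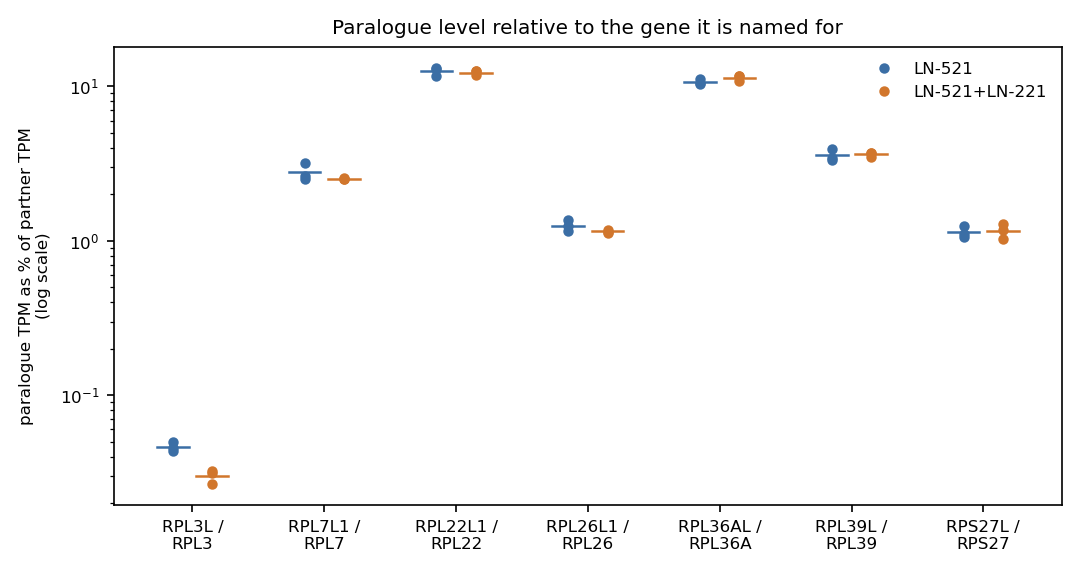
TPM of each paralogue as a percentage of the TPM of its partner (log axis), with 1 point per library and a colour per coating. RPL22L1 and RPL36AL lie above 10% of their partners in every library, and RPL3L lies under 0.05% of RPL3.

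The small differences among the members ran with base composition. Across the 83 members other than RPL3L, log2 fold change and transcript GC content had a Pearson's r of -0.55 (Spearman's rho -0.57), beside -0.12 (rho -0.21) across 17473 genes. These genes share the same 6 libraries. In the 28 members of lowest GC content (39.5% to 47.5%), the median log2 fold change was 0.05, with 22 positive and 6 negative values. In the 28 of highest GC content (52.5% to 63.6%) it was -0.04, with 6 positive and 22 negative values. The 27 members between them had a median of 0.01. RPL36AL had 42.4% GC, while RPLP2 and FAU had 56.9% and 56.8%.

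With counts corrected for GC content in each library, 0 members were called (5.26% of all genes), r in the members was -0.19, and the medians of the groups of lowest and highest GC content were 0.02 and -0.02. Without LN-521 replicate 2, the library with the strongest relation, r was -0.21 in the members and 0.02 across all genes. Without LN-521 replicate 1 it was -0.68. Leaving out any of the other 4 libraries gave values from -0.58 to -0.47. Transcript length had an r of 0.08 with the fold change in the members. GC correction took the log2 fold change of RPLP2 from -0.17 to -0.14, that of FAU from -0.16 to -0.12 and that of RPL36AL from 0.14 to 0.11.

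**Figure D5:**
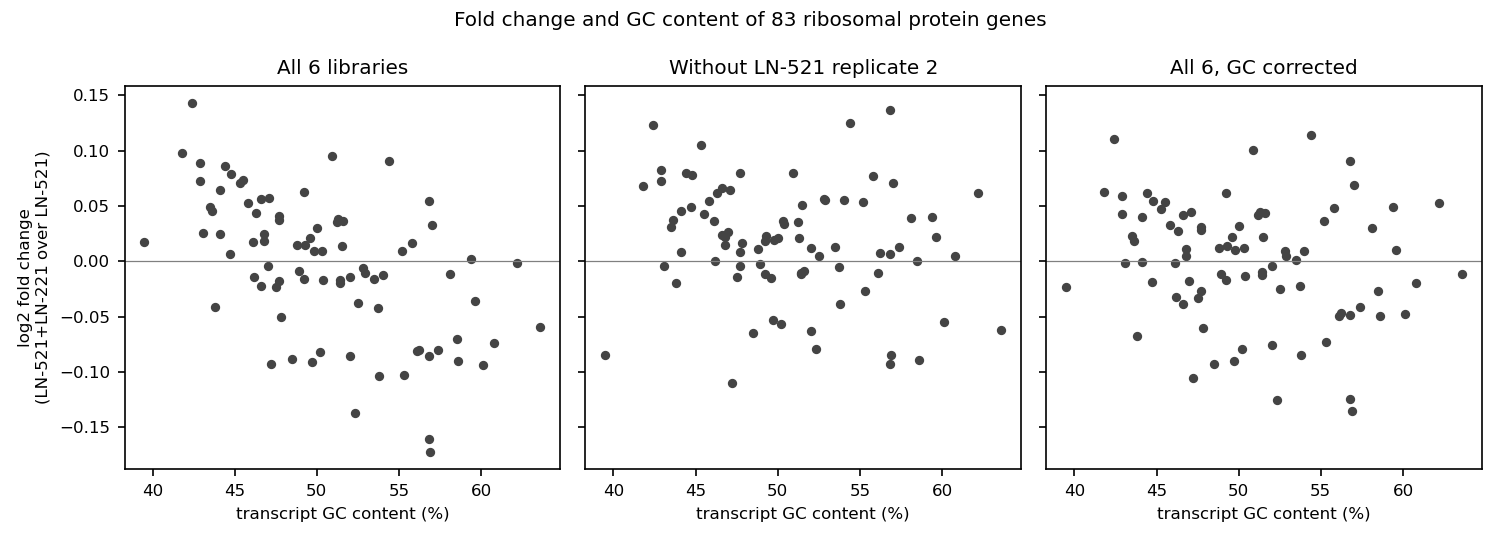
Log2 fold change (LN-521+LN-221 over LN-521) against transcript GC content in percent for 83 members, 1 point per gene, in the fits named above each panel. The downward slope with all libraries (r -0.55) is shallower after GC correction (r -0.19) and without LN-521 replicate 2 (r -0.21).

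One library decided whether any member was called. Without LN-521 replicate 1, 5 of 84 members (5.95%) had an edgeR adjusted p under 0.05, all lower on LN-521+LN-221, while 6.54% of the 18026 genes then tested were called and 3.09% were called lower. FAU fell by 0.23 on the log2 scale (adjusted p by edgeR = 0.00797, between 0.00797 and 0.839 over the alternatives tried). RPLP2 fell by 0.22 (adjusted p by edgeR = 0.0177, range 0.0177 to 0.811). RPL8 fell by 0.18 (adjusted p by edgeR = 0.0335, range 0.0335 to 0.993), RPL10 by 0.17 (adjusted p by edgeR = 0.0438, range 0.0438 to 0.904) and RPS28 by 0.17 (adjusted p by edgeR = 0.0491, range 0.0491 to 0.996). Leaving out any of the other 5 libraries gave 0 calls among the members. The fits without LN-521 replicate 2 and LN-521 replicate 3 called 3.56% and 1.13% of all genes, and those without LN-521+LN-221 replicates 1, 2 and 3 called 1.61%, 1.1% and 1.09%. Without LN-521 replicate 2, the log2 fold changes of FAU, RPLP2 and RPL10 came to -0.09, -0.08 and -0.03, and those of RPL8 and RPS28 to 0.005 and 0.007, with the sign turned.

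As a share of all counts, the members differed between the coatings by less than the spread of the wells: 6.71% ± 0.204 on LN-521, against 6.72% ± 0.137 with LN-221 added (SD of 3 wells). As a share of TPM they were at 10.7% ± 0.391 and 11.1% ± 0.154, with overlapping wells. 7SL, the RNA scaffold of the signal recognition particle, and its copies held between 30.1% and 37.3% of TPM, most of all in LN-521 replicate 2, where the members' share of TPM was lowest (10.3%). With mitochondrial, ribosomal RNA, 7SK and 7SL genes left out, the members' shares of TPM were 18.1% ± 0.485 and 18.2% ± 0.0473.

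Reads of ribosomal protein genes can be counted on their many processed pseudogenes. The tables list 1527 pseudogenes named for 78 of the members, and their summed counts had a median of 0.153% of the gene's own. The share was high for RPL23A (39%, almost all on RPL23AP42), RPS2 (15.5%, mainly RPS2P5) and RPL22 (13%, mainly RPL22P1), so the levels of these 3 genes are uncertain. With each gene and its named pseudogenes summed, 0 members were called (2.54% of all genes). The counts of 67 members were not whole numbers in at least 1 library. Exons of 25 members overlap another gene with reads on the same strand, many of them intron-hosted small nucleolar RNAs or readthrough genes such as RPL17-C18orf32. Exons of 27 overlap one on the other strand, and the sources do not say if reads were assigned by strand.

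The wider translation machinery had few calls, and which genes were called depended on the fit. RPSA and RACK1, ribosomal components outside the naming rule, had mean levels of 1423 and 1720 TPM, and neither was called. Of 18 elongation factors and other TOP mRNAs, 0 were called, with a median log2 fold change of 0.05 (14 positive, 4 negative). EEF1A1, which delivers aminoacyl-tRNA, was the most abundant at 10330 TPM and had a log2 fold change of 0.05 ± 0.06 (SE; adjusted p by edgeR = 0.749). None of 32 initiation factors (median -0.002), 54 ribosome assembly and nucleolar factors (median 0.01) and 26 genes of mTORC1 and its translation targets, MTOR and LARP1 included (median 0.02), was called in the main edgeR fit. That fit, without block or correction, called 2.53% of all genes. DESeq2 called none of them either, against 3% of all genes. At an unadjusted edgeR p under 0.05 stood 1 of the 18 TOP mRNAs, 1 initiation factor, 7 assembly factors and 4 genes of the mTORC1 list, against 14.5% of all genes. Of 78 mitochondrial ribosomal protein genes, 0 were called by either tool and 3 had an unadjusted edgeR p under 0.05, with a median of -0.03 (27 positive, 51 negative).

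Other edgeR fits called genes of these lists, named here after their values were seen. After GC correction, which called 5.26% of all genes, NCL of the assembly factors and RHEB, the GTPase that activates mTORC1, were called. With the replicate block, which called 3.67% of all genes, the initiation factor EIF5B and the mTORC1 regulator RRAGD were called. Without LN-521 replicate 1, which called 6.54% of all genes, 2 of the 32 initiation factors, 5 of the 54 assembly factors, 2 of the 26 genes of the mTORC1 list and 3 of the 78 mitochondrial ribosomal protein genes were called. Without LN-521 replicate 2 (3.56% of all genes), 1 assembly factor and 1 gene of the mTORC1 list were called. None of the 18 TOP mRNAs was called in any fit that left out a library.

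Single genes were called in 2 of the lists on ribosome synthesis. TTF1, which terminates transcription by RNA polymerase I, was the 1 gene of 15 called in its list. It had 33.9, 33.9 and 33.1 CPM on LN-521 and 39.6, 40.8 and 40.9 CPM on LN-521+LN-221, and rose by 0.27 ± 0.07 on the log2 scale (SE; adjusted p by edgeR = 0.0423, between 0.0184 and 0.432 over the alternatives). The call held with DESeq2, with the replicate block, after GC correction and in 2 of the 6 fits that left out a library. MYC was the 1 of 12 genes called in the MYC network. It had 26.4, 33.9 and 40.5 CPM on LN-521 and 23.4, 20.1 and 23.1 CPM on LN-521+LN-221, without overlap but with a wide spread on LN-521.

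MYC fell by 0.60 ± 0.14 on the log2 scale (SE; adjusted p by edgeR = 0.0498, between 3.79e-10 and 0.344 over the alternatives). Its call held with DESeq2, with the replicate block and in 1 of the 6 fits that left out a library (without LN-521 replicate 1), and was lost after GC correction (adjusted p by edgeR = 0.101) and with other size factors (adjusted p by edgeR = 0.0513). MYCN, the MYC family member with the higher level here (17.8 TPM, beside 10.7 TPM for MYC), had 54.8, 49 and 46.2 CPM on LN-521 and 56.8, 57.9 and 57.7 CPM on LN-521+LN-221. It did not pass the test, with a log2 fold change of 0.20 ± 0.07 (SE; adjusted p by edgeR = 0.165), and passed it after GC correction (adjusted p by edgeR = 0.0407, range 0.0109 to 0.74). Among the cell type markers, LIN28A, OTX2 and ZIC1 were called higher and POU5F1 and NANOG lower on LN-521+LN-221, of which ZIC1 was not called by DESeq2. With a library left out, the calls of OTX2 and NANOG held in 6 of 6 fits, that of POU5F1 in 5, that of LIN28A in 3 and that of ZIC1, which had 9 to 27 counts per library, in 0. Whether these differences bear on the ribosomal protein genes was not tested.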

How the data were processed

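Total RNA libraries of 6 wells were analysed, 3 per coating, grouped by their labels. Per the submitters' processing notes, cutadapt, STAR 2.5.2b, RSEM 1.2.31 and hg38 were used; the annotation and the use of strand in counting are not given in the sources used here. The authors deposited estimated counts per gene, with fractional values where reads were shared out among genes. A second deposited table holds the authors' TPM per gene, a unit corrected for transcript length. Both list Ensembl IDs; symbols were found for members through tables of gene names, and gene types, exons, GC content and length came from GENCODE 29, which held 93.8% of the IDs. Library totals were 22669589, 26836686 and 24953668 counts on LN-521, against 20606450, 22398416 and 24006746 on LN-521+LN-221, and the members' precision is given by the SE of each fit.

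Estimated counts were rounded and tested over all genes with edgeR 4.0.16 (R 4.3.3; filterByExpr with a minimum count of 10, TMM, robust quasi-likelihood fit, no block), with Benjamini-Hochberg adjustment over 17608 genes and a threshold of 0.05. CPM uses TMM-scaled library sizes. Every adjusted p names this tool unless another is named. The members and gene lists were chosen with earlier results of these data known. Members named with values in every library were, by rule, those called, the 5 highest and 5 lowest by fold change and by TPM, the paralogues and partners, 12 single members and the most variable member; of these RPL41, RPS24, RPS2, RPL12 and RPL28 are given by their means alone. RPL8, RPL10 and RPS28 were described further after their values were seen. Alternatives were DESeq2 1.42.0, limma 3.58.1 on log2(TPM + 1) and log2(TPM + 0.1), other size factors and filters, corrections for GC content and length (lowess, span 0.3), summed pseudogenes, a replicate block and leaving out each library. Limma on rescaled TPM, size factors from other genes and shares of TPM were added after seeing the data. Only the main edgeR fit was tested on simulated counts, and the alternatives were not. One sequencing batch is listed, so no batch split could be made. A few genes are not reported here, and 1 member is left out of the plots that carry gene names.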

Additional observations from a re-analysis of the deposited data

How the results depend on the processing

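Under every alternative run with all 6 libraries, 0 members were called, while 0.0189% (limma on rescaled TPM) to 5.26% (GC correction) of all genes were; without LN-521 replicate 1, 5 were called, all lower, and leaving out each library gave 0 to 5 calls (0 to 5 lower). The members' median log2 fold change lay between -0.034 and 0.03 with a library left out. The difference in their share of counts, 0.006 percentage points, was 0.373 as a share of TPM and -0.11 to 0.08 with a library left out. All genes called numbered 446 and came to 926 after GC correction, 747 with length correction and the replicate block, 718 with no filter, 16 and 33 by limma on log2(TPM + 0.1) and log2(TPM + 1), 3 on rescaled TPM, 221 and 725 at thresholds of 0.01 and 0.1, and 194 to 1179 with a library left out. The cause was not tested. With the replicate number as a block, 0 members and 646 of all genes were called; same-numbered wells had correlations of 0.068, -0.032 and -0.018 in their deviations, so the numbers were not taken to pair the wells. Among the single genes followed under every setting, RPLP0 came to 0.009 (GC correction), 0.003 (length), 0.007 (length with block), 0.045 (both TPM scales) and 0.004 (rescaled TPM), RPS16 to 0.004 (length with block) and 0.018 (both TPM scales), and RPS28 to 0.039 (both TPM scales). RPL22L1 came to -0.023 after GC correction, and RPL26L1 to -0.035 and RPL7L1 to -0.036 on rescaled TPM. With a library left out, the ranges of these single genes that crossed 0 were -0.013 to 0.105 for EEF1A1, -0.013 to 0.091 for EEF2, -0.088 to 0.001 for RACK1, -0.018 to 0.042 for RPL11, -0.084 to 0.116 for RPL22L1, -0.015 to 0.042 for RPL26L1, -0.009 to 0.065 for RPL38, -0.183 to 0.005 for RPL8, -0.096 to 0.056 for RPLP0, -0.176 to 0.067 for RPS16, -0.149 to 0.012 for RPS19, -0.017 to 0.059 for RPS25 and -0.172 to 0.007 for RPS28. Of all 84 members tested, 48 changed sign in some setting, none with a log2 fold change beyond 0.086 in size, and 36 did not. Depth limits RPL3L and RPL10L among the members.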
